A study of Mus musculus with 6 samples.

Results

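Forkhead transcription factors were followed in A316 cells, a mouse adenocarcinoma line with a Cebpa knockout, which all 6 arrays share (Cebpa encodes C/EBP alpha). Cells on 3 arrays were given PTC-209, per the labels an inhibitor of Bmi, dissolved in 0.5% DMSO. Cells on the other 3 arrays were given 0.5% DMSO without the compound. The groups come from the sample titles and treatment fields. The free-text sample descriptions speak of embryo stages, which conflicts with the titles and the named cell line, and were not used. The sources used here give neither its dose nor the exposure time. The forkhead genes were taken by symbol, as every gene whose name starts with Fox, a letter from a to s and a digit, leaving out Foxa1 and Foxa2. This gave 42 genes of the 19937 named on the array. Of these, 41 encode proteins, and Foxl2os is a noncoding RNA gene opposite Foxl2. Each gene is read by its brightest probe set, and 44 probe sets carry a forkhead symbol.

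Forkhead factors share a winged-helix DNA-binding domain, and most bind variants of the core GTAAACA. FOXM1 drives the genes of G2 and mitosis in dividing cells. FOXO factors are held in the cytoplasm when insulin or growth factor signals activate Akt, and enter the nucleus when those signals fall, where they turn on genes of cell cycle arrest, antioxidant defence and autophagy. FOXK factors are nutrient-regulated repressors of autophagy genes. Many other members are used in embryonic patterning and are silent in most adult tissues. In lung, FOXF1 marks mesenchyme and FOXJ1 the ciliated airway cells.

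With PTC-209, Foxm1 fell, as did Foxf1 by its brighter probe set, while Foxo3, Foxk1, Foxj3 and Foxo1 rose. Values are log2 expression, so a difference of 1 is a doubling, and ± gives the SD of 3 arrays. A gene is said to have risen or fallen where its limma p-value was under 0.05 after Benjamini-Hochberg adjustment across 28192 probe sets. Of the 42 forkhead genes 6 rose, 3 fell and 33 did not pass. Across all named genes 12.9% rose and 13.7% fell, together 26.6%, and among the forkhead genes 14.3% rose and 7.14% fell, together 21.4%. The family was thus not called more often than other genes, and the result lies in which members moved. The median difference was 0.11 over the forkhead genes and 0.026 over all named genes. The groups did not overlap for 12 forkhead genes that were higher and 4 that were lower, which is 38.1% of them, against 40.5% of all named genes.

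**Figure D1:**
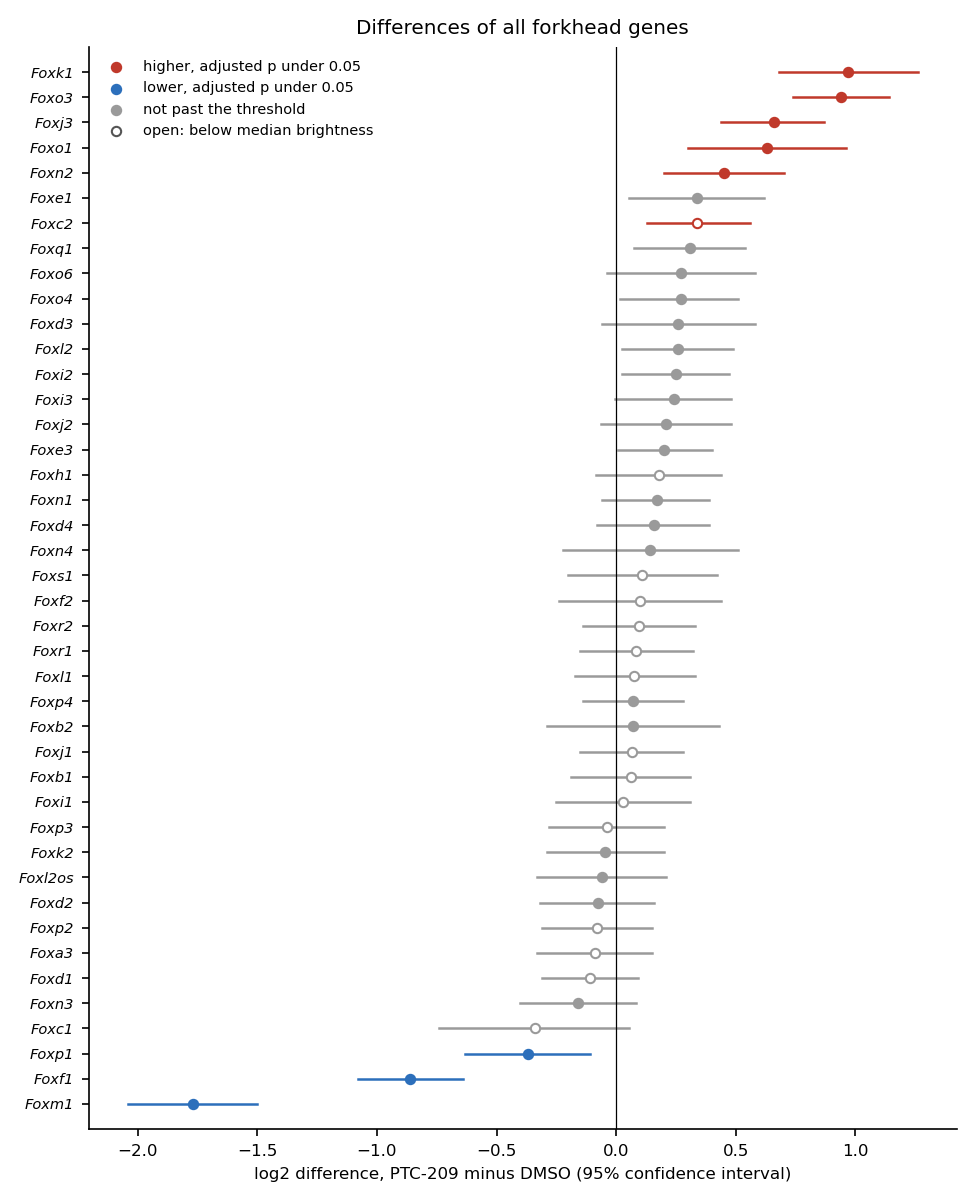
Log2 difference between PTC-209 and DMSO for the 42 forkhead genes, with the 95% confidence interval of the limma fit on 3 arrays per group; red and blue mark genes past the threshold and open points genes below the median brightness. Foxm1 (-1.77) and Foxf1 (-0.86) lie lowest, Foxk1 (0.97) and Foxo3 (0.94) highest, and 33 genes lie between -0.34 and 0.34.

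Some facts about the arrays bear on these values. The array medians lay between 4.07 and 4.14, and the precision is limited by 3 arrays per group. The labels do not tie the arrays to separate cultures, so p-values reflect only how far these samples differ among themselves, a spread that may be technical. In bulk samples fewer cells of a type and less RNA per cell cannot be told apart. Of 20 lung epithelial markers 1 rose, Cdh1 by 0.35, and 4 fell, the keratins Krt7, Krt18, Krt19 and Krt8. The other 15 did not pass, Epcam (-0.29) among them. Together 25% passed, against 26.6% of all named genes. The summed linear level of the 20 was 9131 to 10189 with DMSO and 5280 to 5978 with PTC-209. That sum rests mostly on the 4 keratins, the brightest of the markers, so it largely restates their falls. What part these marker changes had in the forkhead results was not tested. General epithelial genes were bright (Krt8 at 11.41 in DMSO, Epcam at 7.89), while 10 of the 20 markers were below the median brightness of 4.33 in both groups, among them the lung factor Nkx2-1 (3.60 in DMSO), the surfactant gene Sftpc (2.85) and the club cell gene Scgb1a1 (2.16). Other markers of lung lineages, Abca3 (5.96), Ager (4.75) and Cldn18 (4.67), were above it. Bmi1 was lower with PTC-209 (log2 difference -0.54, limma adjusted p = 0.00424). Cebpa was below the median brightness in both groups (3.65 and 3.79). The labels do not say which stretch of the gene was removed, so these values do not check the knockout.

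Foxm1 showed the largest difference of the family. Its log2 expression was 8.17, 7.96 and 8.07 on the DMSO arrays and 6.47, 6.32 and 6.10 on the PTC-209 arrays. All PTC-209 arrays lay below all DMSO arrays by more than the spread within either group. The mean went from 8.07 ± 0.11 to 6.30 ± 0.19, a 3.41-fold lower level (log2 difference -1.77, SE 0.119, 95% confidence interval -2.04 to -1.50, limma adjusted p = 5.86e-06).

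Known FOXM1 targets in G2 and mitosis were lower throughout. All were at or above the median brightness in at least 1 group, and of all named genes of that brightness 21.9% rose and 23.5% fell, together 45.4%. Of 26 measured targets 26 fell and 0 rose (limma; 0 rose at an unadjusted p under 0.05 either), with a median difference of -2.01. The falls ranged from 0.58 for Cenpb, a centromere protein, to 3.30 for cyclin B2. Cyclin B2, Ccnb2, was at 9.77, 9.58 and 9.69 with DMSO and at 6.63, 6.22 and 6.29 with PTC-209. The checkpoint kinase Bub1b fell by 2.78, the kinesin Kif2c by 2.66 and Hmmr, a spindle assembly factor, by 2.65 on the log2 scale. Mitotic genes as a group had already been seen to fall in these arrays, so this list is not independent of that result.

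Of 21 measured partners and regulators of FOXM1, 9 fell and 1 rose, with a median difference of -0.34. Together 47.6% of them passed, near the 45.4% of all genes of like brightness. Split by direction, 42.9% fell and 4.76% rose, against 23.5% and 21.9% of all named genes of that brightness. Melk, a kinase that phosphorylates FOXM1, fell by 2.29, and Mastl, a mitotic kinase, by 2.21. Rbl1, the pocket protein p107 that represses cell cycle genes, fell by 1.51. Mybl2, which acts with the MuvB complex and FOXM1 on mitotic promoters, fell by 1.16. The MuvB subunit Lin9 fell by 0.43, while Lin37 (0.17), Lin52 (0.21) and Lin54 (-0.25) did not pass. Otub1, a deubiquitinase that stabilises FOXM1, was the gene that rose, by 0.82. Without DMSO replicate 1 the list had 3 rises.

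The promoters of the FOXM1 targets share short sequences other than the forkhead core. In the RefSeq promoter table (GRCm38.p6, 250 bases before to 50 after a start), 19 of the 26 genes were found. Of these, 15 genes (78.9%) hold TTTGAA, the core of the cell cycle homology region, on either strand, against 20.2% of all genes in the table. CCAAT, the NF-Y box, stands in 16 (84.2%), against 41.1%. GTAAACA stands in 0 of them, against 4.05%. The 100 bases before the start are printed for the 3 targets with the largest falls among those that hold TTTGAA there. Capitals mark TTTGAA and CCAAT or their reverse complements, TTCAAA and ATTGG.
Top2a, chr11:99024190-99024289, minus strand: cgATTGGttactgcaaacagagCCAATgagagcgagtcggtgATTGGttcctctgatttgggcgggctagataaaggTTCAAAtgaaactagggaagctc
Cdk1, chr10:69352913-69353012, minus strand: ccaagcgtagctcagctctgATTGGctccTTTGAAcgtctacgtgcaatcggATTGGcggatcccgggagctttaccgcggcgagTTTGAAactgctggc
Prc1, chr7:80294376-80294475, plus strand: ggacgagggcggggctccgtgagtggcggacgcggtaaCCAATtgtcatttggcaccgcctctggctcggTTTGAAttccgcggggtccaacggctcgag

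Topoisomerase II alpha, Top2a, which untangles replicated DNA, fell by 2.62 on the log2 scale. Its window holds 3 CCAAT boxes and 1 TTTGAA. The mitotic kinase Cdk1 fell by 1.96 and holds 2 of each. Prc1, which bundles the microtubules of the central spindle, fell by 1.90 and holds 1 of each. A match is a description of the letters and not a measured binding site.

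Of the 4 FOXO genes, Foxo3 and Foxo1 rose. Foxo3 was at 6.97, 6.84 and 6.86 with DMSO and at 7.86, 7.82 and 7.81 with PTC-209. The PTC-209 arrays lay close together and all above the DMSO arrays. The level was 1.92-fold higher (log2 difference 0.94, SE 0.090, 95% confidence interval 0.74 to 1.14, limma adjusted p = 5.67e-05). Foxo1 was at 6.05, 5.61 and 5.81 with DMSO and at 6.62, 6.53 and 6.20 with PTC-209. Its groups did not overlap, but the highest DMSO array and the lowest PTC-209 array were 6.05 and 6.20. Foxo1 was 1.54-fold higher (log2 difference 0.63, SE 0.146, 95% confidence interval 0.30 to 0.96, limma adjusted p = 0.0111). Against a minimum fold of 1.2 it no longer passed (adjusted p = 0.114, the highest of its alternatives, whose lowest was 0.00578).

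Foxo4 and Foxo6, the remaining FOXO genes, had differences of the same sign that did not pass. Foxo4 was at 4.73, 4.53 and 4.47 with DMSO and at 4.94, 4.88 and 4.71 with PTC-209 (log2 difference 0.27, 95% confidence interval 0.017 to 0.51, limma adjusted p = 0.125). Foxo6 was at 4.46, 4.40 and 4.02 with DMSO and at 4.40, 4.68 and 4.61 with PTC-209 (0.27, -0.038 to 0.58, limma adjusted p = 0.211). For both the groups overlapped. Their intervals overlap that of Foxo1, and differences between the FOXO genes were not tested.

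**Figure D2:**
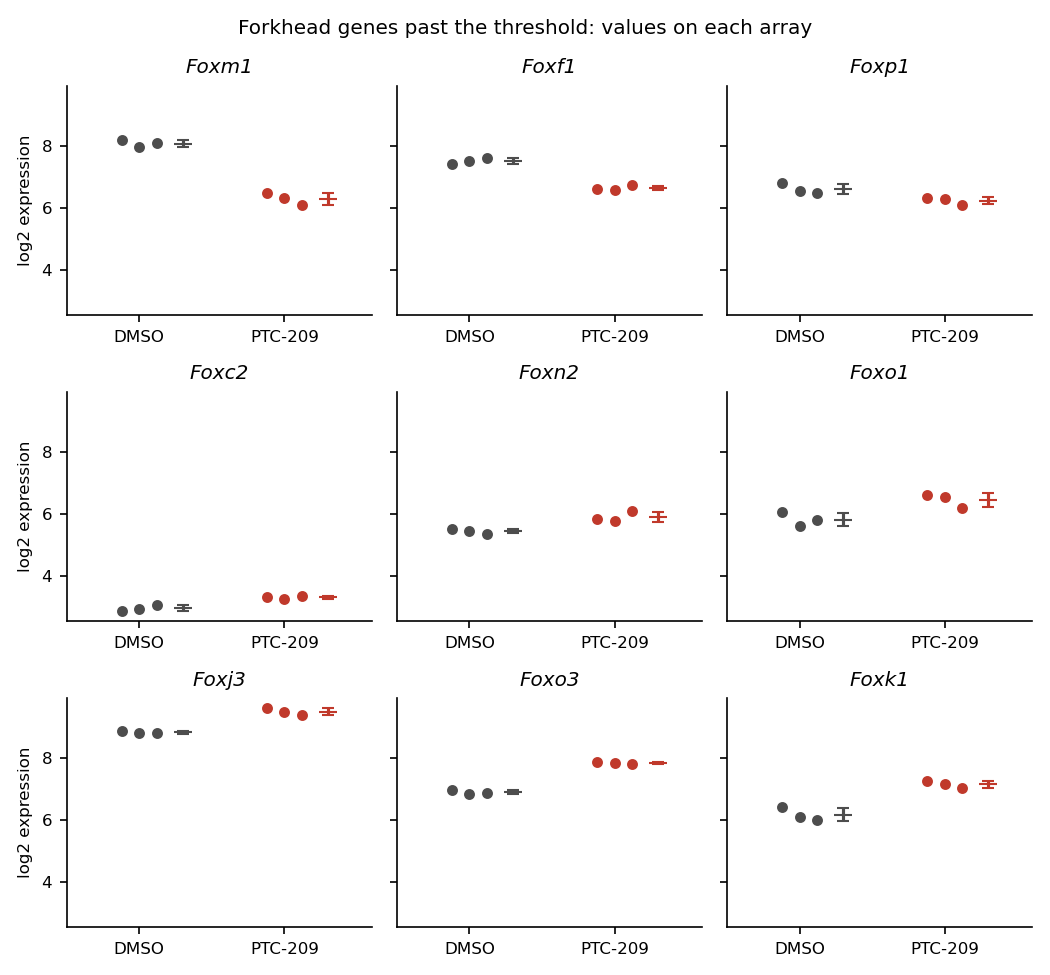
Log2 expression on each array (points) for the 9 forkhead genes past the threshold, with the mean and SD of 3 arrays beside them, DMSO in grey and PTC-209 in red. In every panel the 3 PTC-209 points lie wholly above or wholly below the 3 DMSO points; Foxm1 shows the widest gap, and Foxc2 lies near the bottom of the scale.

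The promoters of Foxo1 and Foxo3 are shown because these FOXO genes rose together, with CCAAT or ATTGG in capitals. Of the 100 bases before the start, Foxo1 holds 2 CCAAT boxes, both on the strand opposite the gene, and Foxo3 holds 0.
Foxo1, chr3:52268237-52268336, plus strand: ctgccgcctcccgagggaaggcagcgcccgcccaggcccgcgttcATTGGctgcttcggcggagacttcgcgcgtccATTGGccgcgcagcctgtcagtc
Foxo3, chr10:42276696-42276795, minus strand: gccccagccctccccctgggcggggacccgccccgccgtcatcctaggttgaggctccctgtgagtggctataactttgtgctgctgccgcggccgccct

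Known FOXO target genes rose more often than fell. Of 53 measured targets 26 rose and 5 fell, with a median difference of 0.25, beside 0.026 over all named genes. The list pools induced targets with the repressed cyclins Ccnd2, counted among the rises, and Ccnd1, counted among the falls. A rise is therefore not the expected direction for every member. The shares were 49.1% higher and 9.43% lower, against 12.9% and 13.7% of all named genes. Of the 53 targets 42 were at or above the median brightness, where 21.9% of all named genes rose and 23.5% fell. The arrest and stress gene Gadd45a rose the most, from 7.30 ± 0.19 to 10.72 ± 0.045, a 10.7-fold higher level (limma adjusted p = 2.51e-07). Gadd45a and Sesn2 are also known targets of other stress factors, p53 and ATF4 among them. Against a minimum fold of 1.2, 14 targets rose and 5 fell.

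Among the targets of cell cycle control, Ccng2, an atypical cyclin of quiescent cells, was at 7.35, 7.05 and 7.04 with DMSO and at 8.48, 8.40 and 8.35 with PTC-209, a 2.40-fold higher level. Cdkn1b, the inhibitor p27, rose by 0.44 by its brighter probe set, and its dimmer probe set fell by 0.41 (limma adjusted p = 0.0137), so the probe sets of this gene disagree. The cyclins that FOXO factors are known to repress went apart, with Ccnd1 lower by a log2 difference of -1.02 and Ccnd2 higher by 1.16. Rbl2, the pocket protein p130, which is also on the list of FOXM1 partners, fell by 0.98.

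Among the targets of metabolism and stress, Txnip, an inhibitor of thioredoxin and of glucose uptake, was at 6.97, 6.91 and 6.49 with DMSO and at 8.28, 8.20 and 8.19 with PTC-209, a 2.70-fold higher level. Irs2, an adaptor of the insulin receptor, rose 2.30-fold and catalase, Cat, 1.83-fold. Sesn2, a stress-induced inhibitor of mTORC1, rose by 0.96, while its paralogue Sesn3 fell by 1.47 and Sesn1 did not pass (-0.30). The peroxidase Prdx3 and the pseudokinase Trib1 also fell. Of autophagy genes, Gabarapl1 rose by 1.08, Atg12 by 1.07, Atg14 by 0.53 and Map1lc3b by 0.48, while Ulk2 did not pass (-0.16). The mitophagy receptor Bnip3 rose by 1.17, while the mitophagy kinase Pink1 did not pass (0.087). Bcl2l11, the cell death gene Bim, rose by 0.63. The death ligands Fasl and Tnfsf10 on the list, both below the median brightness in both groups, did not pass. The liver gluconeogenic targets G6pc and Pck1 and the muscle ligase Trim63, all below the median brightness, did not pass.

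The forkhead core GTAAACA was found in the promoters of 6 of the 44 FOXO targets in the RefSeq table (13.6%), against 4.05% of all genes. It stood in 4 of the 24 that rose, 0 of the 3 that fell and 2 of the 17 that did not pass. The 4 that rose are shown with 61 bases around the core, in capitals as GTAAACA or, on the opposite strand, TGTTTAC.
Txnip, chr3:96557809-96557869, plus strand: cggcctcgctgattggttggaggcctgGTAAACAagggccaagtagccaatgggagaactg
Bcl2l11, chr2:128125788-128125848, plus strand: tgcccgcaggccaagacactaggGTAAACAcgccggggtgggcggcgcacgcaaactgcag
Mxi1, chr19:53329445-53329505, plus strand: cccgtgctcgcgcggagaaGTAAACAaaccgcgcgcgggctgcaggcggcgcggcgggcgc
Bbc3, chr7:16310067-16310127, plus strand: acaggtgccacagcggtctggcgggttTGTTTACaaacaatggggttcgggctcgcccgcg

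Txnip carries the core from base -121 relative to its start and showed the largest rise of the 4 (1.43). Bcl2l11 rose by 0.63. The MYC antagonist Mxi1 rose by 0.48 and the cell death gene Bbc3, Puma, by 0.42.

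The genes that control FOXO proteins moved in both directions, 13 up and 13 down of 46 measured, with a median of 0.042. That is 28.3% in each direction, and 44 of the 46 were at or above the median brightness, where 21.9% of all named genes rose and 23.5% fell. This list shares Igf1r, Insr, Irs2 and Pik3ca with the FOXO targets, Skp2 with the FOXM1 targets and Sirt1 with the FOXM1 partners. Among the kinases that phosphorylate FOXO factors and keep them out of the nucleus, Akt1 was lower (-0.53) and Akt2 higher (0.52). A dimmer probe set of Akt2 did not pass (0.33, limma adjusted p = 0.0727). Sgk1 (-0.56) and Sgk3 (-0.47), relatives of Akt, were lower. Stk4, the kinase MST1, which sends FOXO factors to the nucleus under stress, rose by 0.99, and Mapk8, the kinase JNK1, by 0.85. Of the phosphatases that act against Akt signalling, Inpp4b fell by 1.62 and Phlpp1 fell by 0.96, while Phlpp2 (0.17) and Inpp5d (0.25) did not pass. Of enzymes that modify FOXO directly, the acetyltransferase Kat2b fell by 1.30 and the methyltransferase Prmt1 fell by 1.10. The deubiquitinase Usp7 fell by 0.76 and the deacetylase Sirt1 fell by 0.65, while Sirt2 rose by 0.88. The acetyltransferases Ep300 and Crebbp rose by 0.64 and 0.57. The nuclear exporter Xpo1 fell by 0.51. Against a minimum fold of 1.2, 6 of these genes rose and 7 fell. The array reads mRNA, so the phosphorylation and location of FOXO proteins, on which their activity rests, were not measured.

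**Figure D3:**
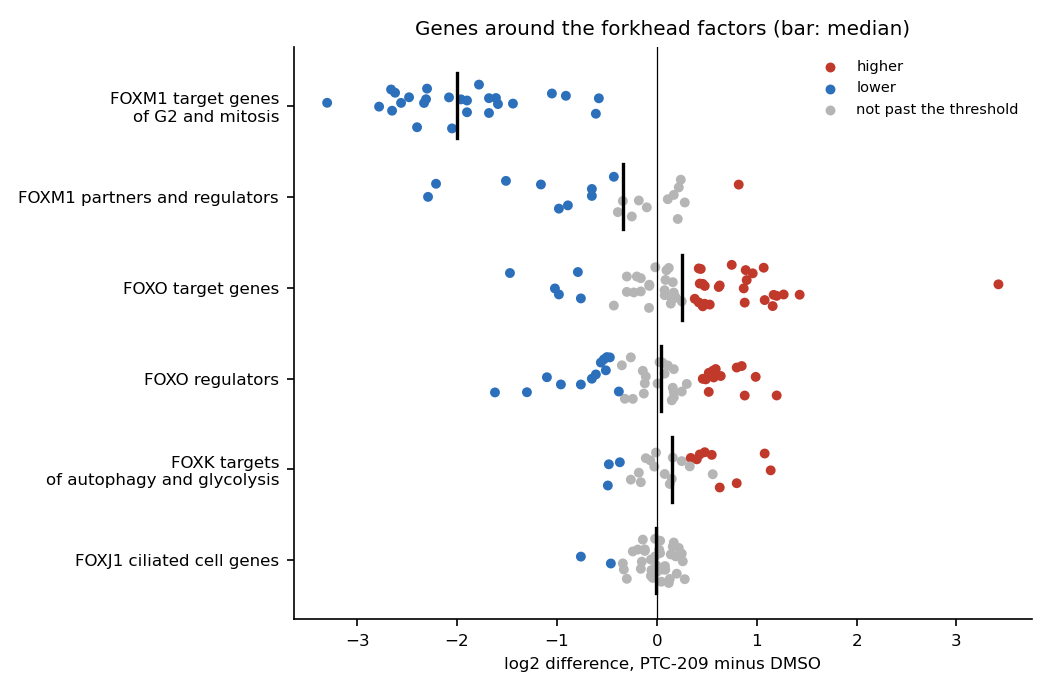
Log2 difference between PTC-209 and DMSO for single genes (points) of 6 gene lists around the forkhead factors, with a black bar at each list's median and vertical scatter only to separate points. All 26 FOXM1 targets lie below 0 with a median of -2.01, FOXO targets have a median of 0.25, and the FOXO regulators spread to both sides.

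Of the FOXK genes, Foxk1 rose and Foxk2 did not pass. Foxk1 was at 6.42, 6.10 and 6.0 with DMSO and at 7.26, 7.16 and 7.02 with PTC-209. Every PTC-209 array lay above every DMSO array. The level was 1.96-fold higher (log2 difference 0.97, SE 0.128, 95% confidence interval 0.68 to 1.26, limma adjusted p = 0.000408), the largest rise in the family. Foxk2 was at 8.13, 7.91 and 7.87 with DMSO and at 8.01, 7.97 and 7.79 with PTC-209, overlapping values (-0.046, 95% confidence interval -0.29 to 0.20). The intervals of these paralogues do not overlap, though the difference between them was not tested.

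A list of 26 genes linked to FOXK factors, most of them of autophagy or glycolysis, had 9 rises and 3 falls. The median difference was 0.16. The list pools autophagy genes with glycolysis genes, and also holds Dvl1, Dvl2 and Dvl3, which are of neither kind. The repression named above concerns the autophagy genes only, so the pooled counts and median have no single expected direction. Of the Dvl genes Dvl2 rose (0.34), while Dvl1 (-0.11) and Dvl3 (0.33) did not pass. Of the whole list 46.2% passed, near the 45.4% of all named genes at or above the median brightness, as 25 of the 26 were. By direction 34.6% rose and 11.5% fell, against 21.9% and 23.5% of all named genes of that brightness. This list shares 4 genes with the FOXO targets, Gabarapl1, Map1lc3b, Pdk4 and Ulk2. Hexokinase 2, Hk2, rose by 1.14, the autophagy modifiers Gabarapl1 and Gabarap by 1.08 and 0.63, and Hif1a by 0.80. The genes that fell were Pfkm (-0.49), Pdp1 (-0.48) and Pik3c3 (-0.37). Leaving out DMSO replicate 1 left 1 fall, and leaving out PTC-209 replicate 3 left 0. Against a minimum fold of 1.2, 4 rose and 0 fell.

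Foxj3, a widely expressed member active in muscle and germ cells, rose from 8.87, 8.79 and 8.79 to 9.58, 9.47 and 9.37. The groups were clearly apart. The level was 1.57-fold higher (log2 difference 0.66, SE 0.097, 95% confidence interval 0.44 to 0.87, limma adjusted p = 0.000811). Its paralogue Foxj2 was at 7.0, 6.67 and 6.68 with DMSO and at 7.08, 7.04 and 6.86 with PTC-209 and did not pass (limma adjusted p = 0.283). Foxj1, the master factor of motile cilia, lay below the median brightness on all arrays, from 3.02 to 3.22. Of 38 measured genes of ciliated cells 28 were below the median brightness, and 2 fell and 0 rose (limma; 1 higher and 5 lower at an unadjusted p under 0.05), with a median difference of -0.0044. Together 5.26% passed, beside 3.24% of all named genes below the median brightness in both groups and 45.4% of the brighter ones. The falls numbered 4 with the replicate block, 1 with dim probe sets left out and 1 against a minimum fold of 1.2. Those that fell were Myb (-0.76), which also serves dividing cells, and the ciliary protein gene Ccdc39 (-0.46).

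Foxn2 rose from 5.52, 5.47 and 5.37 to 5.83, 5.78 and 6.09. Its groups did not overlap, and the third PTC-209 array was the highest. The level was 1.36-fold higher (log2 difference 0.45, SE 0.111, limma adjusted p = 0.0154). The call was lost without DMSO replicate 3 (adjusted p = 0.0598), without PTC-209 replicate 3 (0.0538), and against a minimum fold of 1.2 (0.348). Its lowest value in any alternative was 0.00739. Foxn3, a transcriptional repressor linked to the DNA damage checkpoint, gave opposite signs from its probe sets. The brighter set was at 6.87, 7.04 and 7.19 with DMSO and at 6.89, 6.92 and 6.82 with PTC-209 (-0.16, limma adjusted p = 0.363). The dimmer set went from 6.04 ± 0.21 to 6.35 ± 0.054 (0.31, limma adjusted p = 0.099). Neither passed. Foxn1, of thymus and skin epithelium, and Foxn4, of retina, did not pass (0.17 and 0.14). Foxr1 and Foxr2 were below the median brightness and did not pass (0.084 and 0.097).

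The FOXP factors are repressors with a zinc finger and a leucine zipper. Foxp1 was at 6.79, 6.55 and 6.49 with DMSO and at 6.32, 6.30 and 6.10 with PTC-209. The groups did not overlap but lay close, with the lowest DMSO array at 6.49 and the highest PTC-209 array at 6.32. The level was 1.29-fold lower (log2 difference -0.37, SE 0.115, 95% confidence interval -0.63 to -0.11, limma adjusted p = 0.0423). The call ended without any 1 array other than DMSO replicate 3 (adjusted p 0.0629 to 0.143), after median centring (0.0587) and against a minimum fold of 1.2 (0.78). Its lowest value in any alternative was 0.0155. Foxp4, with Foxp1 a regulator of airway epithelium, was at 5.40, 5.29 and 5.30 with DMSO and at 5.34, 5.42 and 5.43 with PTC-209 and did not pass (0.070, limma adjusted p = 0.676). Foxp2 was at 3.48, 3.41 and 3.21 with DMSO and at 3.26, 3.30 and 3.31 with PTC-209. Foxp3, the factor of regulatory T cells, was at 4.31, 4.26 and 4.12 with DMSO and at 4.03, 4.29 and 4.24 with PTC-209. Both lay below the median brightness, their groups overlapped, and neither passed. Of 15 measured leukocyte markers 13 were below the median brightness, Ptprc and Il2ra among them, and 2 changed, Cd68, which is also a lysosomal gene, which rose by 2.61, and Ly6g, which fell by 0.87. That is 13.3%, against 26.6% of all named genes and 3.24% of those below the median brightness in both groups. The summed linear level of the 15 was 299 to 311 with DMSO and 1147 to 1209 with PTC-209, and without Cd68 it was 129 to 138 and 127 to 135.

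Foxp1 has 3 starts in the RefSeq table, and all 3 promoters hold TAAACA, the last 6 bases of the forkhead core. Of all genes listed there, 15.1% hold TAAACA in at least 1 promoter, and of the 27 forkhead genes found there 2 do, Foxp1 and Foxp3. GTAAACA itself stands in 0 of the 27. The 61 bases around the element are shown for each start, with TAAACA or its reverse complement TGTTTA in capitals.
Foxp1, chr6:99521051-99521111, minus strand: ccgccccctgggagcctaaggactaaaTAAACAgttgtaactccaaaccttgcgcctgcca
Foxp1, chr6:99266559-99266619, minus strand: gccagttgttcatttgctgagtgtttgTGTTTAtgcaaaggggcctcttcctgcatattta
Foxp1, chr6:99028320-99028380, minus strand: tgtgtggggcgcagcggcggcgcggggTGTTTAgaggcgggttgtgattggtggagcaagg

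Of 21 developmental members 1 fell, Foxf1, 1 rose, Foxc2, and 19 did not pass. Together 9.52% passed, against 26.6% of all named genes. Of the 21, 10 were below the median brightness in both groups. Of all named genes that dim 3.24% passed, and of the brighter ones 45.4%. Foxf1, a mesenchymal and endothelial factor of the lung, was at 7.41, 7.50 and 7.59 with DMSO and at 6.60, 6.59 and 6.73 with PTC-209 by its brighter probe set. The groups were far apart. The level was 1.82-fold lower (log2 difference -0.86, SE 0.097, 95% confidence interval -1.08 to -0.64, limma adjusted p = 0.000155). A dimmer probe set of Foxf1 was at 6.79 ± 0.14 with DMSO and 6.55 ± 0.20 with PTC-209, overlapping values that did not pass (-0.24, limma adjusted p = 0.238). The mean of both sets fell by 0.55 and passed. Endothelial Cdh5 also fell, from 9.48 ± 0.049 to 8.15 ± 0.21, while the other 9 endothelial markers were below the median brightness and did not pass. The summed linear level of those 9 was 97 to 104 with DMSO and 105 to 115 with PTC-209. Of 15 mesenchyme markers 0 passed (limma; 1 higher and 0 lower at an unadjusted p under 0.05), 11 were below the median brightness, and their summed linear level was 214 to 226 with DMSO and 224 to 240 with PTC-209.

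**Figure D4:**
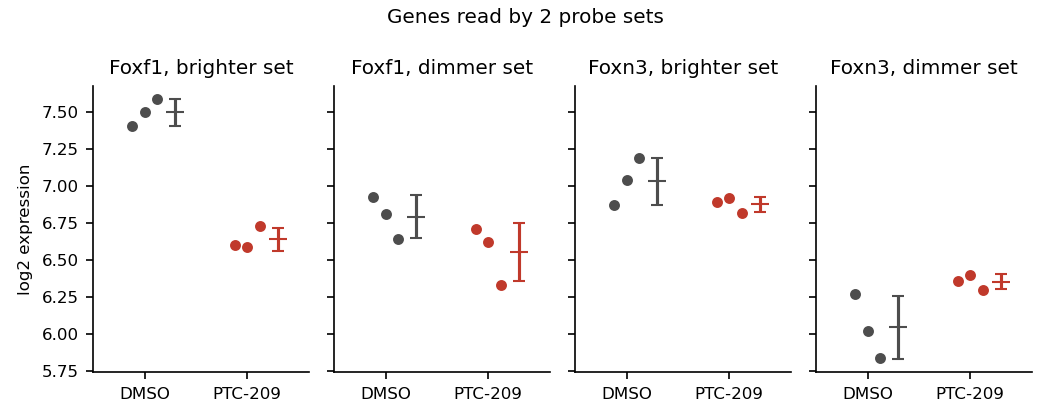
Log2 expression on each array (points), with mean and SD of 3 arrays, for the brighter and the dimmer probe set of Foxf1 and Foxn3, DMSO in grey and PTC-209 in red. The brighter Foxf1 set separates the groups (7.50 against 6.64) and the dimmer one does not, and the Foxn3 sets differ in sign.

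Foxc2, a factor of mesoderm and lymphatic vessels, was at 2.90, 2.96 and 3.08 with DMSO and at 3.34, 3.27 and 3.36 with PTC-209. The groups did not overlap, but both were below the median brightness. The log2 difference was 0.34 (SE 0.094, limma adjusted p = 0.025). The call ended without any 1 array other than DMSO replicate 3 (adjusted p 0.0547 to 0.0783) and against a minimum fold of 1.2 (0.848). Its lowest value in any alternative was 0.0238. Foxc2 lies near Foxf1 in a cluster with Foxl1, which did not pass (0.075), so the members of this cluster had differences of unlike size and sign.

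A like cluster holds Foxq1, Foxf2 and Foxc1, of which 0 passed (limma; Foxq1 passed at an unadjusted p under 0.05). Foxq1, a factor of epithelial plasticity, was at 5.23, 5.34 and 5.50 with DMSO and at 5.73, 5.68 and 5.59 with PTC-209. The groups were apart, and it came nearest the threshold (0.31, limma adjusted p = 0.0602). It passed without DMSO replicate 3 (adjusted p = 0.0457) and when dim probe sets were left out (0.0299). Foxf2 was below the median brightness (0.099), as was Foxc1, at 4.02, 3.77 and 3.72 with DMSO and at 3.90, 3.18 and 3.40 with PTC-209 (-0.34, limma adjusted p = 0.217). Without PTC-209 replicate 1 Foxc1 was lower by 0.55 (adjusted p = 0.0211). Foxe1, a thyroid factor, had a difference of 0.34 that did not pass (limma adjusted p = 0.0907). It passed without DMSO replicate 2 (0.0423) and when dim probe sets were left out (0.049).

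The remaining developmental members had differences between -0.11 and 0.26. Foxd1, Foxh1, Foxi1, Foxb1, Foxs1 and Foxa3 were below the median brightness. Foxb2, Foxd2, Foxd3 and Foxd4 were brighter, with overlapping groups (-0.075 to 0.26). Foxe3, Foxi2, Foxi3 and Foxl2 were higher on all 3 PTC-209 arrays than on any DMSO array, by 0.20 to 0.26, without passing (limma adjusted p 0.11 to 0.159). Foxl2os, the RNA gene opposite Foxl2, had a difference of -0.059, while Foxl2 had 0.26. Of the liver and gut group FOXA, Foxa3 was at 3.09 ± 0.11 and 3.0 ± 0.13. Foxa1 and Foxa2, left out by the rule, did not pass either (-0.097 and 0.059).

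Of the 42 forkhead genes 15 were below the median brightness in both groups, and 1 of these, Foxc2, passed, beside 3.24% of all named genes of that brightness. Of the other 27, 8 passed (Foxm1, Foxf1, Foxp1, Foxk1, Foxo3, Foxo1, Foxj3 and Foxn2), beside 45.4% of all named genes of that brightness. Foxm1, Foxf1, Foxk1, Foxo3 and Foxj3 passed in all 13 alternatives, including each array left out in turn.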

How the data were processed

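The members and gene lists were chosen with earlier results of these data known. The authors deposited log2 expression values, and the submitters' processing notes name RMA, which background-corrects, quantile-normalizes and summarises probes. The values themselves show the log2 scale. RMA would hide a shift shared by most genes. Of 34760 probe sets, 6568 in the array's control block were left out, and 28192 were fitted with limma 3.58.1 in R 4.3.3 (treatment as the only term), with Benjamini-Hochberg adjustment over all of them. Probe sets with several symbols name no gene. Each gene took its brightest probe set over the 6 arrays. The text names every forkhead member, and from each list up to 4 of the largest changes past the threshold and further members by role, the latter chosen after their values were seen. The alternatives tried were cyclic loess, median centring, a robust and trended prior, dropping dim probe sets, a minimum fold of 1.2, a block for replicate number, the mean of a gene's probe sets, and each array left out. On simulated data with 50 genes changed at each size, the fit recovered 24% at a log2 change of 0.5, 84% at 1 and 98% at 2. The simulation changed 200 of 28192 probe sets, all above the median brightness, while 26.6% of named genes passed in the data. Its shares therefore do not give the sensitivity of the fit in these data, nor that for dim genes. Figures were drawn with matplotlib 3.10.9. Promoter sequences are RefSeq's (GRCm38.p6). No build is named for the probe sets, so no probe coordinates are given.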

Additional observations from a re-analysis of the deposited data

How the results depend on the processing

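Of the forkhead counts, 6 rises and 3 falls, the rises numbered 3 against a minimum fold of 1.2, which ended the calls of Foxo1, Foxn2, Foxc2 and Foxp1. With 1 array left out the rises numbered 4 to 6 and the falls 2 to 3. Against that minimum, FOXO targets had 14 rises, FOXO regulators 6 rises and 7 falls, the FOXK list 4 rises and 0 falls, and FOXJ1 genes 1 fall. With dim probe sets left out, the forkhead rises numbered 7, since Foxq1 and Foxe1 passed and Foxc2 was not fitted. FOXM1 partners then had 2 rises and FOXJ1 genes 1 fall. Over arrays left out, FOXM1 partners had 1 to 3 rises and the FOXK list 0 to 3 falls. No reversal of a called member was seen in the alternatives run. The replicate numbers carry no stated pairing, and the deviations of same-numbered arrays correlated at 0.231, 0.07 and 0.073. With the replicate block the forkhead counts stayed at 6 rises and 3 falls, and FOXJ1 genes had 4 falls. The causes were not tested. Members near background, such as Foxc2, have uncertain differences. Background correction could not be varied, since scanner files were not used here.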
